A study of Neurospora crassa with 18 samples.

Results

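The change of H3K27 methylation in an *ash1* mutant and in an *npf* mutant of *Neurospora crassa* was compared gene by gene, over the 592 genes that are listed with a value in both H3K27 tables, of 9730 genes in the gene lists of the study. The genes were found by joining the tables by gene name, and both tables hold the same 592 genes. All 592 are ASH1-marked, that is, on the list of 1970 genes that carry H3K36me2 in a strain without SET-2, and 585 are among the 836 genes listed with H3K27me2/3 in wild type (WT). Both tables come from ChIP-seq of germinated conidia, the asexual spores after outgrowth, with 1 sample per mutant. The first sample is *ash1*(Y888F), a point mutant designed to be catalytically dead, precipitated with an antibody against H3K27me2/3. The strain list of the study holds several *ash1*(Y888F) strains, all with a 3xFLAG tag on the mutant gene, which differ in mating type, in the marker (*hph* or *nat*) and in whether *mus-52* is deleted. The second is Δ*npf*, precipitated with an antibody labelled H3K27me3. The Δ*npf* strain of that list, N4721, is *mat a* with *npf* replaced by *hph*. The labels of the ChIP samples do not name strains, so which *ash1*(Y888F) strain was used is not known here.

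H3K27 methylation is the repressive mark of facultative heterochromatin, and in *Neurospora* it is made by SET-7, the catalytic subunit of Polycomb repressive complex 2 (PRC2), over domains of silent genes near the chromosome ends and inside the arms. ASH1 is a methyltransferase of another residue, H3K36, and marks poorly transcribed genes. NPF is the ortholog of *Drosophila* p55 (Nurf55/Caf1), a histone-binding protein that belongs to PRC2 and also to other chromatin complexes. The comparison asks whether the genes that need the ASH1 enzyme for H3K27 methylation are the genes that need this PRC2 subunit.

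Each value is the log2 ratio of mutant over WT read coverage, averaged over 0.5 kb on each side of a point that lies, for 460 of the 592 genes, within 50 bp of the 5′ end of the listed gene span. A gene is called lower at a ratio of -1 or less, which is 2-fold, and higher at 1 or more. In *ash1*(Y888F) 25 genes (4.22%) were higher and in Δ*npf* 27 (4.56%). Since 585 of the 592 genes are listed with H3K27me2/3 in WT, gains at genes unmarked in WT lie mostly outside this comparison. The paper reports such gains in *ash1*(Y888F) and new H3K27me3 domains in Δ*npf*. The split of lower to higher genes thus holds for genes that mostly carry the mark in WT. With 1 sample per mutant the ratios have no replicate check, no test between mutants was possible, and their depth is unknown. The antibodies also differ by label, so the mutation and the antibody cannot be told apart in any difference between the tables, and the WT libraries behind each ratio are not named and may be shared. The spread within a gene is therefore the only spread at hand. Both sides come from the same sample, so it does not measure error between samples. The values of the 2 sides of a gene differed by a median of 0.18 on the log2 scale in *ash1*(Y888F) and 0.30 in Δ*npf*.

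At the 2-fold threshold and the authors' zero point, H3K27 methylation was lower in about equally many genes of each mutant, and these were largely different genes. The ratio was at least 2-fold lower at 166 genes in *ash1*(Y888F) (28.0% of the 592) and at 173 genes in Δ*npf* (29.2%). These counts were 205 and 260 at 1.5-fold and 67 and 24 at 4-fold. With each table centred on its median they were 174 and 85, and with its upper quartile as zero 203 and 196. At 2-fold, 21 genes were lower in both mutants. That number moved with the threshold and the zero point, to 69 at 1.5-fold, 1 at 4-fold, 12 with each table centred on its median and 43 with its upper quartile as zero. Another 145 were lower in *ash1*(Y888F) only, with a median ratio of -1.87 there and 0.15 in Δ*npf*. The 152 genes lower in Δ*npf* only had a median of -1.46 in that mutant and 0.13 in *ash1*(Y888F). The remaining 274 genes were lower in neither. These classes follow from a threshold on single values and are a description. The genes just inside and just outside it had ratios of -1.01 and -0.997 in *ash1*(Y888F) and of -1.01 and -0.996 in Δ*npf*, and 34 genes in *ash1*(Y888F) and 106 in Δ*npf* lay within 0.25 of it.

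The shapes of the distributions differed too. In *ash1*(Y888F) the values had a peak near WT, with 218 genes between 0 and 0.5, and a long tail of lowered genes. The median was 0.08 and the quartiles were -1.28 and 0.40. The lowered genes had a median of -1.88, and 67 were at least 4-fold lower. In Δ*npf* the centre of the distribution lay below WT, with a median of -0.46 and quartiles of -1.09 and 0.13. The lowered genes had a median of -1.46, and 24 were at least 4-fold lower. The upper tail was not shifted down, with a highest ratio of 2.00 against 1.81 in *ash1*(Y888F). Both sides of the gene passed the threshold at 157 of the 166 genes in *ash1*(Y888F) and at 127 of the 173 in Δ*npf*. The zero of a ratio depends on how libraries are scaled. With each table centred on its own median the split of lower to higher genes went from 166 and 25 to 174 and 21 in *ash1*(Y888F), and from 173 and 27 to 85 and 86 in Δ*npf*. The number of genes called lower in Δ*npf* is thus read relative to the authors' scaling, under which the median gene of that table lay 0.46 below WT.

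**Figure D1:**
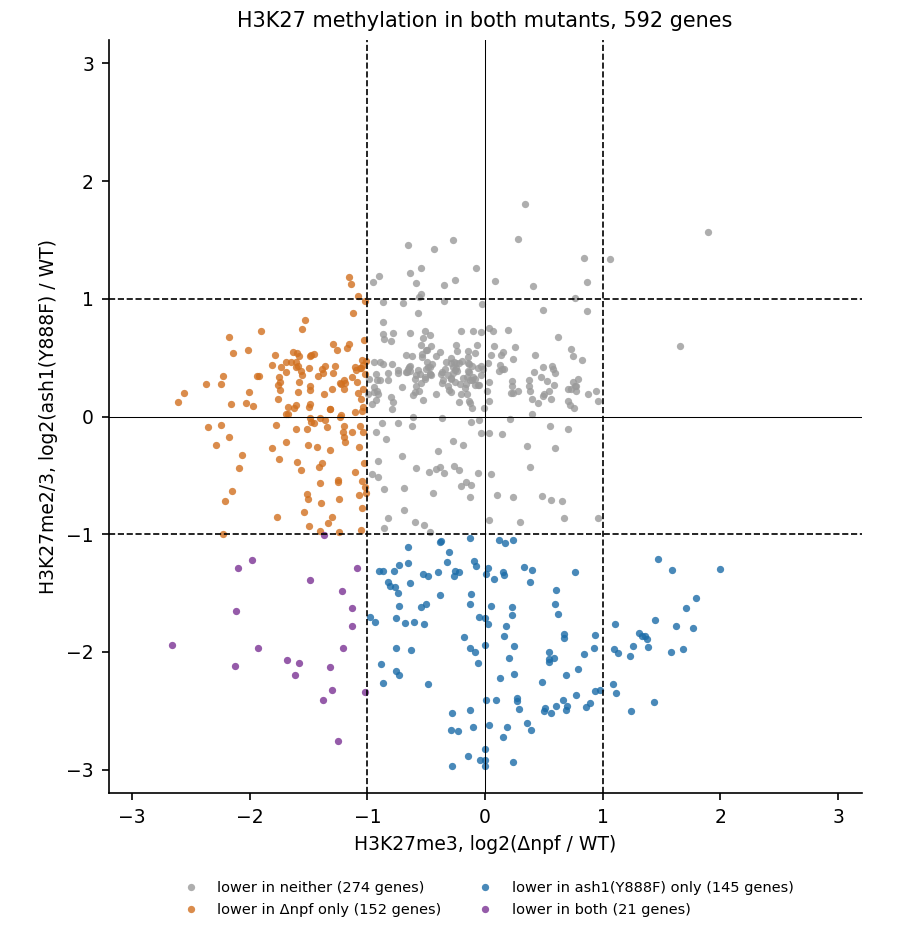
Each point is 1 of the 592 genes, with the log2 ratio of Δ*npf* over WT (H3K27me3) on the horizontal axis and that of *ash1*(Y888F) over WT (H3K27me2/3) on the vertical axis. Dashed lines mark 2-fold, and colours mark the 4 classes: the 145 genes lower in *ash1*(Y888F) only and the 152 lower in Δ*npf* only fill different quadrants from the 21 genes lower in both.

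A smaller set of genes had opposite values in the mutants. Of the 27 genes at least 2-fold higher in Δ*npf*, 24 were at least 2-fold lower in *ash1*(Y888F), on LG II, LG III and LG IV (LG, linkage group, the fungal name for a chromosome). Their medians were 1.38 in Δ*npf* and -1.88 in *ash1*(Y888F). The number of such genes was 48 at 1.5-fold, 0 at 4-fold and 49 with median-centred tables. The reverse pattern, a gain in *ash1*(Y888F) with a loss in Δ*npf*, held for 3 of the 25 genes that were higher in *ash1*(Y888F), and 2 genes were higher in both.

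The 8 genes that most favoured Δ*npf* all belong to this opposite set. *NCU08799* on LG IV (5207835 to 5208918) had ratios of -2.43 in *ash1*(Y888F) and 1.44 in Δ*npf*, a difference of -3.86. *NCU08833* on LG IV (5086127 to 5087106) had -2.50 and 1.24, and *NCU03473* on LG II (568990 to 570312) had -1.98 and 1.68. The other members of these 8, *NCU08813*, *NCU08801*, *NCU05677*, *NCU08802* and *NCU16876*, had differences from -3.58 to -3.36. In each of the 8 both sides were lower than WT in *ash1*(Y888F) and higher in Δ*npf*. None of the 8 has a symbol in the annotation.

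In the other direction, the 8 genes with the largest difference ranged from 0.12 to 0.73 in *ash1*(Y888F) and from -2.61 to -1.90 in Δ*npf*. *NCU04867* on LG IV (547664 to 548863) had 0.67 and -2.18, a difference of 2.85. *NCU07146*, *NCU07147* and *NCU07145* are neighbours close to the right end of LG V, where *ash1*(Y888F) had ratios of 0.20, 0.12 and 0.27 and Δ*npf* had -2.56, -2.61 and -2.37. *NCU16728*, *NCU04870* and *NCU09650* on LG IV and *NCU10427* on LG III complete the set, with differences from 2.58 to 2.68.

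The genes lowest in both mutants are few. *NCU07151* on LG V (6412876 to 6413555) had -2.12 in each. *NCU07152*, its neighbour (6411400 to 6412219), had -1.96 in *ash1*(Y888F) and -1.93 in Δ*npf*. *NCU09633*, near the left end of LG II (11642 to 12594), had -1.94 and -2.66, which is the lowest ratio of any gene in Δ*npf*. *NCU07090* on LG VI (197965 to 199028) had -2.07 and -1.68. At the opposite corner, *NCU05713* on LG III (601856 to 603223) had 1.57 in *ash1*(Y888F) and 1.89 in Δ*npf*, and *NCU09851* on LG V (5957371 to 5958636) had 1.34 and 1.06. *NCU05866* (0.90 and 0.87) and *NCU16924* (1.14 and 0.86) came next and are higher than WT in both tables without passing 2-fold in Δ*npf*.

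Of the 592 genes 15 have a symbol in the annotation, and they fall on both sides of the comparison. A run of protein kinase genes in a single stretch of LG III, *stk-35*, *stk-56* and *stk-36*, had ratios of -2.60, -2.26 and -2.42 in *ash1*(Y888F), whereas Δ*npf* had 0.36, 0.48 and 0.27. A further kinase gene of that arm, *stk-54*, had -0.71 and 0.56. The gene *rsk*, also on LG III, had -0.90 and -0.59. Among the genes for enzymes that degrade polysaccharides, *gh11-2*, of a xylanase family, had 0.12 and -2.03, and *gh7-4*, of a cellulase family, had 0.42 and -1.73. In contrast *gh81-1*, of a family of glucanases, had -1.501 and -0.74. The xylanase family genes *gh10-3* (0.97 and -0.69) and *gh10-2* (0.73 and 0.07) and the chitinase family gene *gh18-4* (0.71 and -0.64) were within 2-fold of WT in both mutants. *nst-7*, a sirtuin gene (NAD-dependent histone deacetylase family), had 0.02 and -1.69. The calcium pump gene *nca-3* (-0.45 and -0.23), the opsin gene *nop-1* (0.19 and -0.15) and the conidiation gene *con-6* (-0.49 and -0.96) were within 2-fold in both.

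Genes close to a chromosome end were mostly lower in Δ*npf*, and in *ash1*(Y888F) the share of lower genes followed no steady course with the distance from the end. The end of a linkage group is taken here as its outermost listed gene. Among the 29 genes within 25 kb of an end, 27 were lower in Δ*npf* and 5 in *ash1*(Y888F), with medians of -2.004 and -0.09. From 25 to 50 kb, 13 of 15 genes were lower in Δ*npf* and 0 in *ash1*(Y888F), and from 50 to 100 kb the counts were 13 and 5 of 22. Within 200 kb 51.8% of 137 genes were lower in Δ*npf*, against 22.4% of the 455 genes farther in. For *ash1*(Y888F) these shares were 27.0% and 28.4%. With the Δ*npf* table centred on its median its shares were 30.7% and 9.45%. With the limit at 100 kb the shares were 80.3% near the ends and 22.8% farther in for Δ*npf*, and 15.2% and 29.7% for *ash1*(Y888F). Of the 14 chromosome ends 13 have genes of the tables within 50 kb, 44 in all, and at 10 of the 13 every one of them was lower in Δ*npf*. The 5 genes within 50 kb that were lower in *ash1*(Y888F) sit at the left end of LG II and the right ends of LG III and LG V, and all 5 were lower in Δ*npf* too.

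Farther than 200 kb from an end the ratios ran from -2.97 to 1.81 in *ash1*(Y888F) and from -2.29 to 2.00 in Δ*npf*. Between 300 and 500 kb from an end, 53 of 171 genes were lower in *ash1*(Y888F) and 43 in Δ*npf*, and between 500 and 1000 kb 55 and 30 of 182. The genes higher in Δ*npf* were interior: 25 of the 27 lie between 500 and 1000 kb from an end and 0 within 200 kb. Beyond 1000 kb there are 17 genes, of which 10 were lower in *ash1*(Y888F) and 0 in Δ*npf*.

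**Figure D2:**
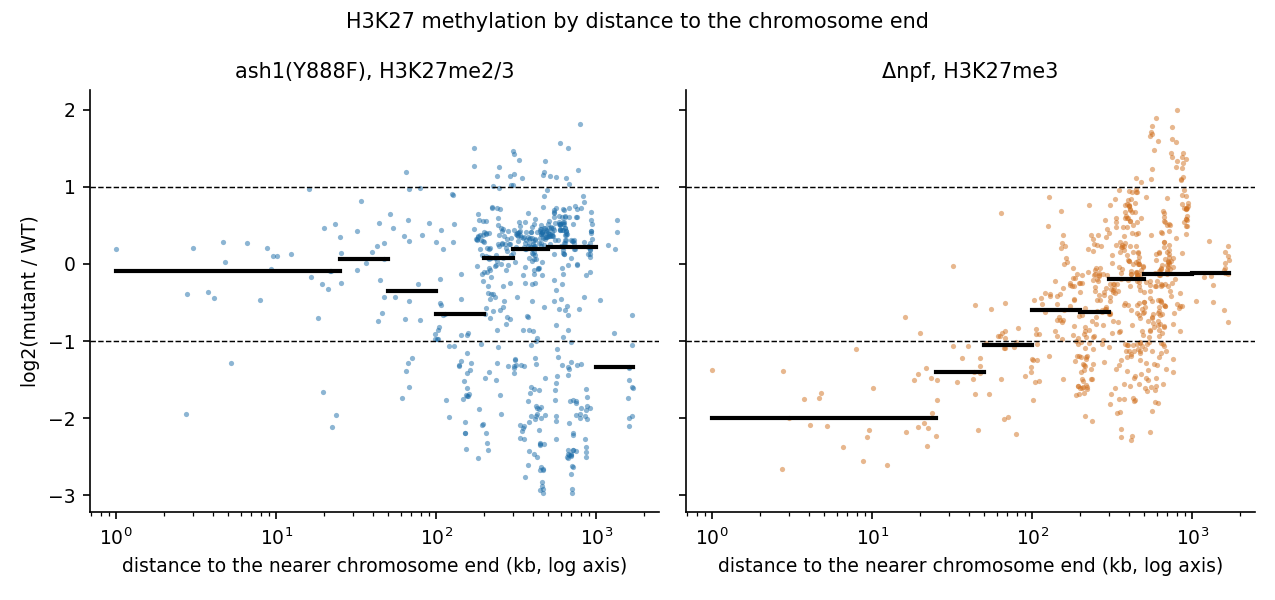
Each point is 1 of the 592 genes, with its distance to the nearer chromosome end in kb on a log axis (the outermost gene, at 0 kb, is drawn at 1 kb) and its log2 ratio of mutant over WT on the vertical axis, *ash1*(Y888F) on the left and Δ*npf* on the right. Black bars are medians of distance ranges: in Δ*npf* they go from -2.004 within 25 kb to -0.13 between 500 and 1000 kb, while in *ash1*(Y888F) they stay between -0.65 and 0.22 up to 1000 kb and are at -1.34 beyond.

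Single chromosome arms differed sharply. On the left arm of LG IV (the genes before the middle of the linkage group) 0 of 93 genes were lower in *ash1*(Y888F) and 40 were lower in Δ*npf*. On the right arm of the same chromosome 27 of 32 genes were lower in *ash1*(Y888F), with a median of -1.79, while 17 were higher and 7 lower in Δ*npf*, with a median of 1.09. On LG III the arms were the other way round in *ash1*(Y888F), with 24 of 50 genes lower on its left arm and 3 of 101 on its right arm. In Δ*npf* 11 and 28 genes were lower on these arms. The left arm of LG VI had the highest share of genes lower in *ash1*(Y888F) of any arm, 43 of 49, with a median of -2.07, and 10 of the 21 genes lower in both mutants. On the left arm of LG VII 35 of 63 genes were lower in *ash1*(Y888F) and 5 in Δ*npf*. LG I had the fewest losses in *ash1*(Y888F), 2 of its 32 genes, against 11 in Δ*npf*.

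**Figure D3:**
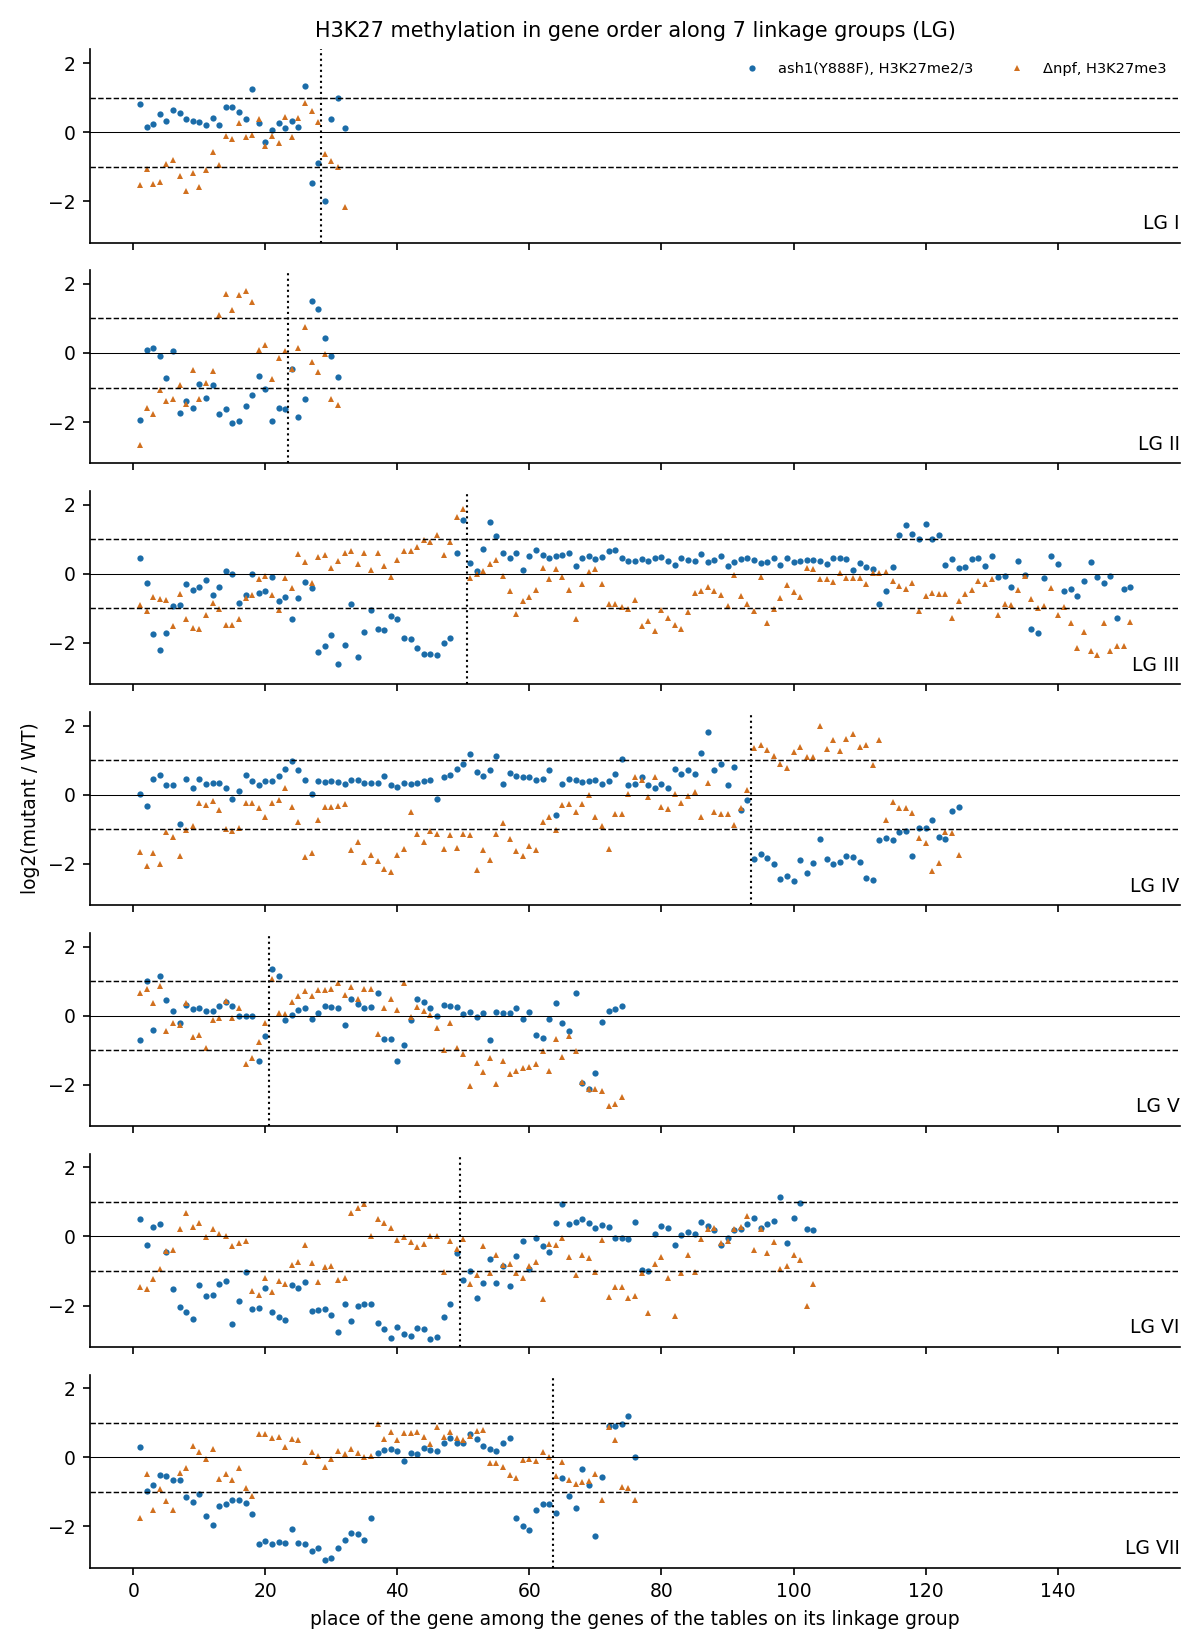
The 592 genes are drawn in their order along the 7 linkage groups, with the log2 ratio of mutant over WT on the vertical axis, blue circles for *ash1*(Y888F) and orange triangles for Δ*npf*. Dashed lines mark 2-fold and the dotted line parts the left from the right arm: on the right arm of LG IV the blue points lie mostly below -1 (27 of 32 genes) where 17 of the orange ones lie above 1.

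Neighbouring genes shared their values. Genes of the tables that adjoin one another with no other listed gene between them were joined into blocks, which gave 75 blocks of 3 to 16 genes that hold 427 of the 592 genes, beside 44 pairs and 77 single genes. Neighbours within a block differed by a median of 0.18 in *ash1*(Y888F) and 0.27 in Δ*npf*, against 0.85 and 0.82 between genes of different blocks on the same linkage group. Only 24 of the 396 neighbour pairs have windows that overlap, and without them the medians were 0.19 and 0.27. Differences between blocks made up 92.5% of the variance of the ratio in *ash1*(Y888F) and 85.3% in Δ*npf*. In *ash1*(Y888F) 64 of the 75 blocks had all of their genes on one side of the 2-fold threshold, 19 of them below it. In Δ*npf* these numbers were 46 and 14.

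By block medians, 21 blocks (114 genes) were lower in *ash1*(Y888F) only, 21 blocks (106 genes) were lower in Δ*npf* only, 4 blocks (18 genes) in both and 29 blocks (189 genes) in neither. Blocks lower in Δ*npf* only lay a median of 233 kb from the nearer chromosome end and those lower in *ash1*(Y888F) only a median of 445 kb. The median lengths were 10.7 and 13.6 kb.

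The 4 blocks with the most negative difference of medians all had every gene lower in *ash1*(Y888F) and a median above 2-fold in Δ*npf*, and no other block did. The block from *NCU03476* to *NCU03472* on LG II (562861 to 571921, 5 genes) ranged from -2.03 to -1.54 in *ash1*(Y888F) and from 1.11 to 1.79 in Δ*npf*. The other 3 lie close together on the right arm of LG IV. From *NCU08802* to *NCU09939* (5201582 to 5250952, 5 genes) the medians were -1.96 and 1.44. From *NCU08814* to *NCU08812* (5148855 to 5157522, 3 genes) they were -1.95 and 1.33, and from *NCU08838* to *NCU08832* (5071805 to 5092199, 7 genes) -2.01 and 1.24.

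At the other extreme, the block nearest the right end of LG V (*NCU07147* to *NCU07145*, 6422489 to 6429262, 3 genes) had medians of 0.20 in *ash1*(Y888F) and -2.56 in Δ*npf*. Next came 2 blocks on the left arm of LG IV, *NCU04867* to *NCU04871* (547664 to 569177, 4 genes, 0.70 and -1.75) and *NCU07637* to *NCU07641* (349040 to 375687, 5 genes, 0.34 and -1.92). A block near the right end of LG III, *NCU10427* to *NCU08756* (5247940 to 5254295, 3 genes), had medians of -0.09 and -2.23.

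**Figure D4:**
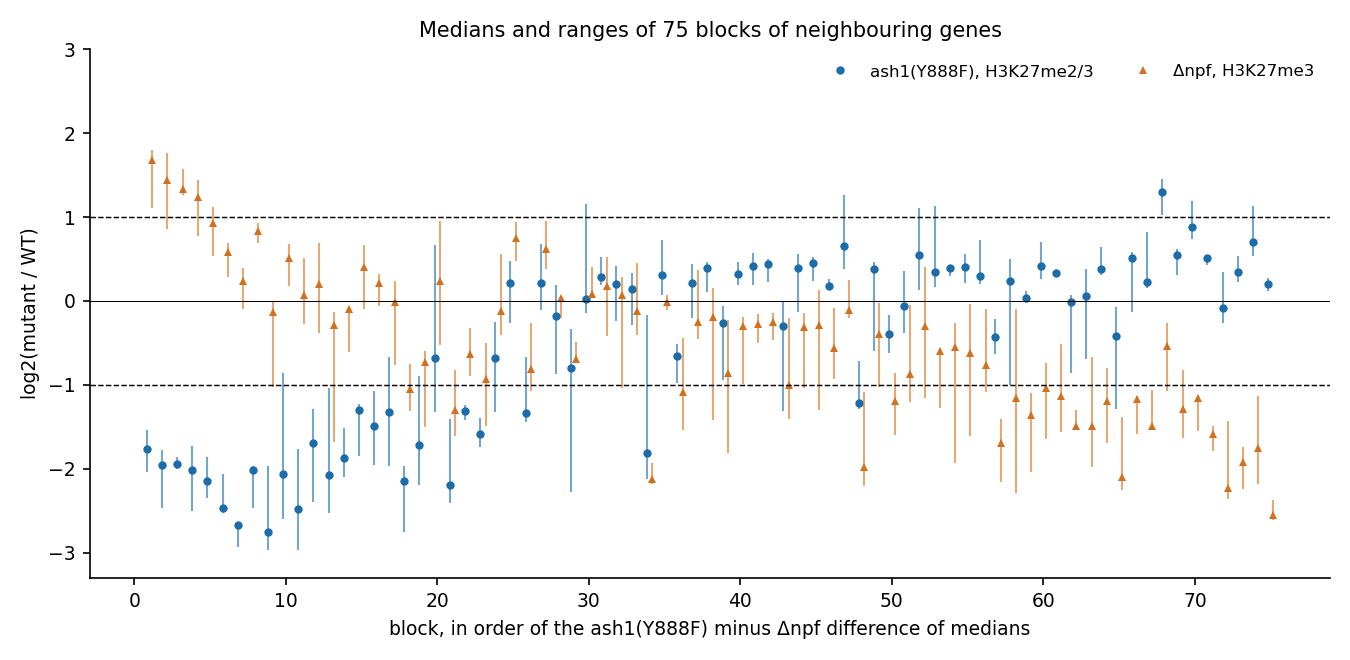
The 75 blocks of at least 3 neighbouring genes are placed in order of the difference between their medians, with the log2 ratio of mutant over WT on the vertical axis. Points are medians and bars the range over the genes of a block, blue for *ash1*(Y888F) and orange for Δ*npf*: at the left end the 4 opposite blocks lie at -2.01 to -1.76 in *ash1*(Y888F) and 1.24 to 1.68 in Δ*npf*, and at the right end the values cross, to 0.20 and -2.56 in the last block.

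Some steps from one block to the next were large in one mutant and small in the other. The following blocks were chosen after their values were seen. Near the right end of LG V the last block is separated by 1 listed gene and 3.01 kb from the block *NCU07152* to *NCU07149* (6411400 to 6419476, 4 genes). Its median in *ash1*(Y888F) was -1.81, against 0.20 in the last block, whereas Δ*npf* had -2.12 and -2.56. On LG VII *ash1*(Y888F) held at -2.47 and -2.48 over 2 blocks of 6 and 12 genes (661362 to 675441 and 695165 to 721156) and was at 0.21 in the next, of 15 genes (886585 to 930085), which lies 165 kb and 48 listed genes farther on. In Δ*npf* the medians of these blocks were 0.58, 0.07 and 0.62. On LG VI the block from 346218 to 392299 (6 genes) and the next, from 410959 to 422696 (3 genes), were alike in *ash1*(Y888F), at -2.15 and -2.02, and stepped in Δ*npf* from -1.04 to 0.84.

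RNA gives a readout that the joining of the tables did not use. It exists here for *ash1*(Y888F) and WT, with 2 biological replicates each, and no RNA of Δ*npf* is among the samples. By the library names the WT strain was N623 (*mat A*, *his-3*) and the mutant strain N4878 (*mat A*, *his-3*, with the 3xFLAG tag on *ash1*(Y888F) and the *hph* marker). The tag and the marker thus differ from WT along with Y888F and cannot be told apart from it. The Δ*mus-52* parent, used below in place of WT as an alternative, is labelled *his-* as WT is. The WT and mutant libraries held 6547197 to 8103382 counts in genes, and Spearman's rho between replicates was 0.985 in WT and 0.959 in *ash1*(Y888F). The test was edgeR's quasi-likelihood test over the 8125 genes that a filter on low counts left, with calls where the p-value adjusted by Benjamini-Hochberg was under 0.1. In *ash1*(Y888F) 1053 genes rose and 273 fell, which are 10.8% and 2.81% of all 9730 genes, and the rises were 34.6% of the 1970 ASH1-marked genes. The number of falls depended on single libraries: it was 107 without WT replicate 1, 87 without WT replicate 2, 918 without *ash1*(Y888F) replicate 1 and 461 without replicate 2.

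RNA rose at many of the genes that were lower in *ash1*(Y888F), whether or not they were also lower in Δ*npf*, and at a smaller share of the others. Of the 145 genes lower in *ash1*(Y888F) only, 72 rose (49.7%) and 0 fell. Of the 21 genes lower in both, 12 rose (57.1%) and 0 fell. Of the 152 genes lower in Δ*npf* only, 16 rose (10.5%) and 1 fell, and of the 274 lower in neither 37 rose (13.5%) and 2 fell. The shares are over all members, since a gene silent in WT passes the filter only through the mutant libraries. The filter left 80, 14, 42 and 68 genes of these classes. ASH1-marked genes outside the tables, which had no H3K27 value, rose in 39.5% of cases (544 of 1378). Over all members, only the classes lower in *ash1*(Y888F) lay above that share. Such a share also depends on how many genes had enough counts to be tested, which is not given here for the 1378. The differences between classes were not tested, because genes are not replicates and adjoin in blocks.

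In WT, genes without a read were common in all classes, and the classes differed more in the mutant. No read was counted in either WT library at 73 of the 145 genes (50.3%) lower in *ash1*(Y888F) only, 8 of 21 (38.1%) lower in both, 80 of 152 (52.6%) lower in Δ*npf* only and 162 of 274 (59.1%) lower in neither. At these depths a summed count of 0 leaves room for as many as 3 counts. In the *ash1*(Y888F) libraries 10, 2, 39 and 103 genes of these classes were at 0. The median of the summed counts of both mutant libraries was 37 for the genes lower in *ash1*(Y888F) only, 145 for those lower in both, 4.5 for those lower in Δ*npf* only and 2 for those lower in neither. Both mutant libraries lay above both WT libraries, by CPM (counts scaled to library size), at 113 of 145, 17 of 21, 60 of 152 and 95 of 274 genes. The same held for 33.5% of all 9730 genes.

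Read by the size of the ratio, the share of genes with an RNA rise was 46.3% of the 67 genes at or below -2 in *ash1*(Y888F), 59.3% of the 54 from -2 to -1.5 and 46.7% of the 45 from -1.5 to -1. It was 30.4% from -1 to -0.5, 21.7% from -0.5 to 0, and 7.34 to 8.82% in the ranges above 0. By the ratio in Δ*npf*, the share was 16.0 to 16.7% in the 3 ranges at or below -1 and 20.2 to 27.3% in the ranges between -1 and 1. It was 59.3% (16 of 27) among the genes at least 2-fold higher in Δ*npf*. All 16 of these are among the 24 opposite genes that were lower in *ash1*(Y888F), of which 16 rose (66.7%).

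**Figure D5:**
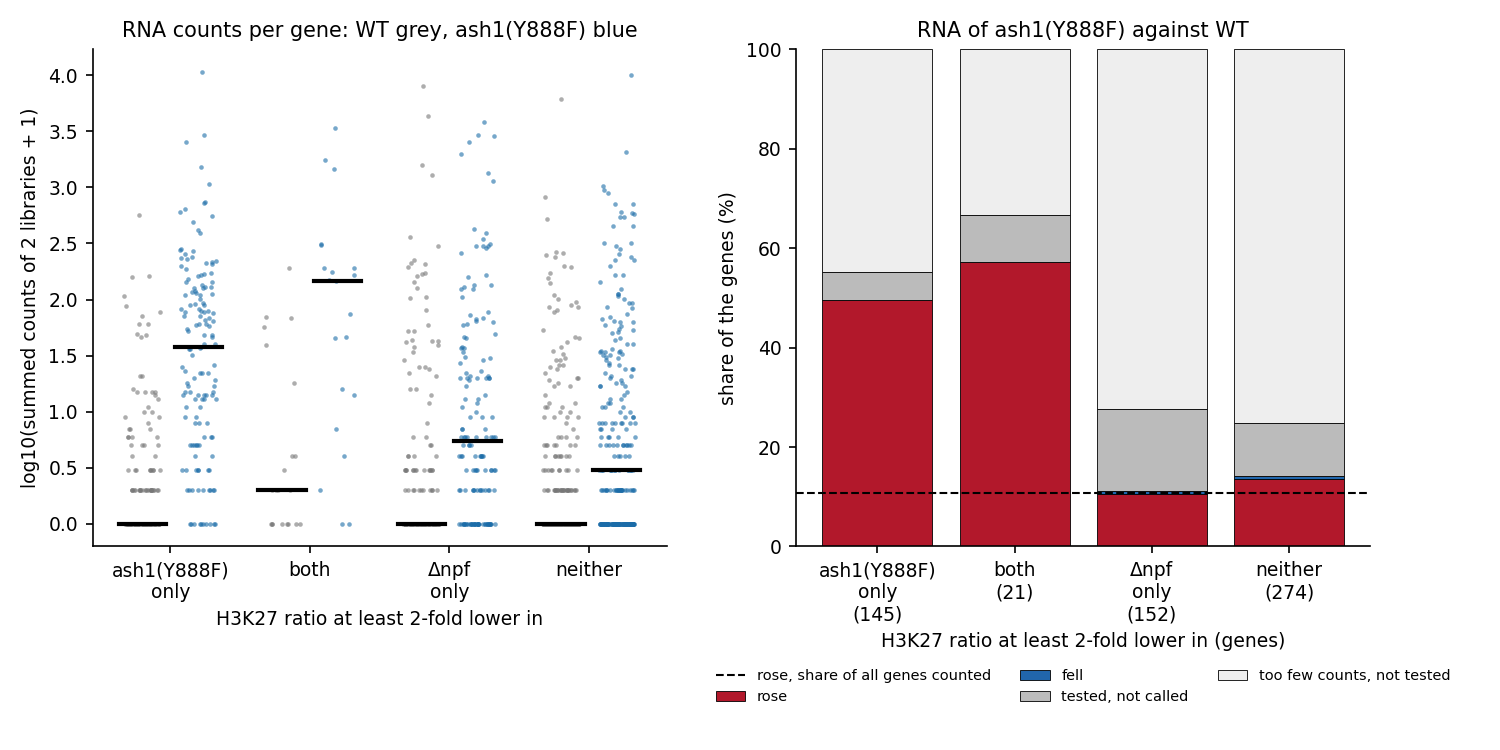
Left, the log10 of summed RNA counts of 2 libraries plus 1 is shown for each gene in the 4 classes of H3K27 ratio, WT in grey and *ash1*(Y888F) in blue, with black bars for medians. Right, the share of each class that rose, fell, was tested without a call or was not tested (edgeR, adjusted p under 0.1) is stacked in percent, with a dashed line at the 10.8% of all genes that rose: 49.7% of the genes lower in *ash1*(Y888F) only rose and 10.5% of those lower in Δ*npf* only.

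The blocks regroup the same genes and values, so their shares restate the division by class and are no separate evidence. Over all 9730 genes 10.8% rose. Of the 114 genes in the 21 blocks lower in *ash1*(Y888F) only 57 rose, and 20 of these blocks had at least 1 such gene. Of the 106 genes in the 21 blocks lower in Δ*npf* only 9 rose (8.49%), in 6 blocks, and 15 blocks had none. In the 29 blocks lower in neither 26 of 189 genes rose (13.8%). Near the chromosome ends, within 50 kb, 4 of the 35 genes lower in Δ*npf* only rose.

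In the 4 opposite blocks 14 of 20 genes rose, beside 84 of all 166 genes lower in *ash1*(Y888F) (50.6%) and 10.8% of all 9730 genes. No gene of these blocks had more than 11 counts in a WT library. In the LG IV block of 7 genes 6 rose, and their WT counts were at most 3 per library. *NCU08835* had WT counts of 1 and 1 and mutant counts of 124 and 91, which is 122-fold in summed and depth-scaled counts (exact 95% counting interval 33.4 to 1016, edgeR adjusted p = 0.00389). *NCU08832* had 1 and 3 counts against 80 and 84, with a fitted log2 fold change of 5.35 (standard error 0.58, edgeR adjusted p = 0.00525). In both genes the groups do not overlap. Both passed the filter on low counts only through the mutant libraries, and their block was picked by its H3K27 values. Their adjusted p-values are therefore a description and no separate support. In the LG II block 3 of 5 genes rose, among them *NCU03476* with 9 and 11 WT counts against 72 and 37. All 3 genes of the smallest of these blocks rose. The block from *NCU08802* to *NCU09939* had 2 rises, and *NCU08799*, the gene with the most opposite ratios of all, had 0 counts in all 4 libraries.

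Among the genes lower in *ash1*(Y888F) only, the 6 with the largest fitted RNA change had counts of 0 or 1 in WT. *NCU08818* on LG IV (5142229 to 5142904), at -1.29 in *ash1*(Y888F) and 2.00 in Δ*npf*, the highest Δ*npf* ratio of any gene, had WT counts of 1 and 0 and mutant counts of 159 and 2776. That is 3337-fold (exact 95% counting interval 598 to 131845, edgeR adjusted p = 0.0171), and the mutant libraries differ widely between themselves. *NCU06888* in the LG VII stretch described above had 0 and 0 counts against 146 and 271, at least 158-fold higher, taking 3 counts over both WT libraries as the floor (edgeR adjusted p = 0.00461). The bounds were at least 103-fold for *NCU05191* on LG IV (157 and 114 counts in the mutant), 95.5-fold for *NCU17203* on LG VII (133 and 119), 86.4-fold for *NCU04706* on LG VI (104 and 124) and 74.7-fold for *NCU08802* (85 and 112). All 4 had 0 counts in both WT libraries. Their ratios in Δ*npf* ran from -0.73 in *NCU05191* to 1.62 in *NCU08802*. All 6 genes passed the filter on low counts only through the mutant libraries and were picked for the size of their RNA change. The adjusted p-values given for them are therefore a description and no separate support.

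A strong loss of H3K27 methylation in *ash1*(Y888F) did not always go with enough RNA to be tested. In the LG VII block of 12 genes, with ratios from -2.97 to -1.77, the filter on low counts left 1 gene, *NCU06905*. It was called higher, with WT counts of 1 and 0 and mutant counts of 22 and 53. The other 11 genes were not tested and had 0 to 15 counts in each mutant library. Both mutant libraries lay above both WT libraries, by CPM, at 6 of the 12 genes. At the right end of LG V *NCU07152*, lower in both mutants, had WT counts of 0 and 0 and 116 and 194 in *ash1*(Y888F), at least 117-fold higher (edgeR adjusted p = 0.00461). This gene too passed the filter on low counts only through the mutant libraries. *NCU07145*, *NCU07146* and *NCU07147*, the genes of the last block, which kept their ratio in *ash1*(Y888F), had 0 or 1 counts in each of the 4 libraries.

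Of the genes with a symbol, the 3 kinase genes of LG III rose with clear gaps between the groups. *stk-56* had WT counts of 1 and 1 and mutant counts of 128 and 147, which is 156-fold (exact 95% counting interval 42.9 to 1297, edgeR adjusted p = 0.00234). *stk-35* had 3 and 2 against 60 and 68, and *stk-36* had 39 and 6 against 412 and 313. The genes *stk-56*, *stk-35* and *stk-54* passed the filter on low counts only through the mutant libraries. The adjusted p-values given here for *stk-56* and *stk-54* are therefore a description and no separate support. Some genes with a ratio within 2-fold of WT in *ash1*(Y888F) rose as well, with ratios from -0.90 in *rsk* to 0.02 in *nst-7*. *nst-7*, lower in Δ*npf* only, had 20 and 17 counts against 112 and 174 (log2 fold change 2.99, standard error 0.39, edgeR adjusted p = 0.00798), and *rsk* had 73 and 81 against 295 and 417. *nca-3* had 59 and 42 against 319 and 220. *con-6*, with 42 and 38 counts against 456 and 92, and *stk-54*, with 1 and 1 against 12 and 23, were called in the full data (adjusted p = 0.0766 and 0.0181, edgeR), but *con-6* was not called without WT replicate 1 and *stk-54* without either WT replicate (adjusted p = 0.114 for *con-6*, 0.108 and 0.104 for *stk-54*). *gh11-2*, with 2 and 2 WT counts against 17 and 1, and *gh7-4*, with 0 and 0 against 1 and 1, had too few counts to be tested.

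Only 3 of the 592 genes fell in RNA, against 2.81% of all 9730 genes, and none of the 3 passed 2-fold lower in *ash1*(Y888F). Most of the 592 could hardly be called lower, since 323 had no read in WT and the filter left only 204. The 3 genes were *gh10-3* (294 and 225 WT counts, 68 and 129 mutant counts), *NCU07610* (120 and 74 against 15 and 17) and *NCU09185* (167 and 135 against 41 and 64), the last 2 named after their values were seen. Their H3K27 ratios in *ash1*(Y888F) were 0.97, 0.98 and -0.78. Without WT replicate 1 the number of such genes was 1, and without *ash1*(Y888F) replicate 2 it was 7. *gh10-3* was not called without WT replicate 1 (adjusted p = 0.281, edgeR).

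The genes for the enzymes themselves lie outside the tables, and none of their RNA was called in *ash1*(Y888F). Of the 5 genes for PRC2 and its effector 0 of 5 passed. *set-7*, the H3K27 methyltransferase, had 176 and 194 WT counts against 237 and 326 (log2 fold change 0.67, standard error 0.25, edgeR adjusted p = 0.173), and without *ash1*(Y888F) replicate 1 the change was 0.78 and passed (edgeR adjusted p = 0.0852). *npf* (*NCU06679*) had 913 and 1160 against 876 and 1098, with a fitted log2 change of 0.0014 (standard error 0.24) whose sign turned under 6 alternatives. *ash1* (*NCU01932*) had 668 and 675 against 556 and 825, which says nothing of the genotype, since Y888F is a point mutation. 0 of 2 H3K36 methyltransferase genes and 0 of 3 genes of constitutive heterochromatin passed, and of 6 polyketide synthase genes, none in the tables, 0 rose and *pks-3* fell, a call that was lost without WT replicate 2. Without *ash1*(Y888F) replicate 2 *dim-5* (*NCU04402*) and *pks-5* (*NCU09638*) were called lower too, at log2 changes of -1.55 and -8.24 (edgeR adjusted p = 0.0445 and 0.00611), and *pks-5* also with the replicate block (-4.11, adjusted p = 0.0813).

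The label of germinated conidia was set against 7 genes of conidia and conidiation. All 7 had reads in both WT libraries, but *con-13* had only 1 count in each and *con-10* had 18 and 2. Their summed levels were 197 and 125 CPM in WT and 316 and 334 in *ash1*(Y888F). In these sums *con-8* went from 41.2 and 12.3 CPM to 58.7 and 151, and *cat-1* from 77.5 and 33.6 to 150 and 122. Neither of these genes was called. Of the 7 genes 2 rose (*con-6* and *con-10*), 1 fell (*eas*, the hydrophobin of the spore surface) and 1 (*con-13*) had too few counts to be tested. The markers thus did not move together. Their changes stand beside the RNA rises above, and a part of these changes in the rises was not tested. The dates in the library names differ between WT and both mutant libraries, so the date and the genotype cannot be told apart in the RNA comparison.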

How the data were processed

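H3K27 ChIP-seq and RNA-seq of *N. crassa* germinated conidia were used as deposited. The authors mapped ChIP reads with Bowtie2 to the corrected OR74A genome (NC12), and their tables hold log2 ratios of mutant over WT coverage from bamCompare. The gene lists are BED files that the authors deposited with a score column filled with 0, so that only names and positions were taken from them; the positions equal those of RefSeq for all 592 genes. The deposited RNA counts, not normalized, came from stranded poly-A+ libraries, trimmed with Stacks, mapped with TopHat2 and counted with HTSeq. Tool versions: not given in the sources used here. Reads in no gene (4.10 to 11.0% of a library) were left out. A table with 8 count columns that carry no names, and the authors' DESeq2 tables of fold changes and p-values, were not used.

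Tables were joined by gene name, and genes were placed in the order of the lists. H3K27 classes are descriptions at 2-fold. RNA was tested with edgeR 4.0.16 in R 4.3.3 (quasi-likelihood test after TMM scaling and filterByExpr at 10 counts, adjusted p under 0.1), after the fit was tested on simulated data. The standard error was obtained from the fitted log2 change and its F statistic (change divided by root F). Counting intervals are exact and cover counting error only. Alternatives were DESeq2 1.42.0, RLE size factors, no filter, a replicate block, 1 library of the Δ*mus-52* parent as WT, an adjusted p under 0.05, each library left out, and other thresholds, zero points, distances and blocks. Tables were made in Python 3.11.15 (pandas 2.3.3, numpy 2.4.6), counting intervals with scipy 1.17.1, and figures with matplotlib 3.10.9.

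Named genes are the 8 with the largest difference in each direction, the 4 lowest and the 4 highest in both mutants, the 4 blocks at each extreme, the 6 largest RNA changes among called genes lower in *ash1*(Y888F) only, and all genes with a symbol. Members of named blocks and genes of the fixed lists are named beside them. Members, lists and rules were chosen with earlier results of these data known.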

Additional observations from a re-analysis of the deposited data

Results flagged for a closer look

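Of the 75 blocks, 8 had every gene below WT in *ash1*(Y888F) and above WT in Δ*npf*, and 19 the reverse. A set of 4 of the 8 is given here for the size of the difference, with every gene at least 2-fold lower in *ash1*(Y888F) and a median at least 2-fold higher in Δ*npf*. The difference of block medians, *ash1*(Y888F) minus Δ*npf* on the log2 scale, was -3.44 from *NCU03476* to *NCU03472* on LG II, -3.40 from *NCU08802* to *NCU09939*, -3.28 from *NCU08814* to *NCU08812* and -3.25 from *NCU08838* to *NCU08832*, the last 3 on LG IV. The difference was not tested, since each mutant has 1 ChIP sample, and mutant and antibody cannot be told apart in it.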

How the results depend on the processing

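Each mutant rests on 1 ChIP sample of unknown depth, so the H3K27 classes move with the threshold and the zero point, not with replicates. At 1.5-fold, 69 genes were lower in both and 48 opposite. At 4-fold 66 were lower in *ash1*(Y888F) only, 23 in Δ*npf* only, 1 in both, 502 in neither and 0 opposite. With each table centred on its median, 73 were lower in Δ*npf* only, 12 in both and 49 opposite, and with the upper quartile as zero 43 were lower in both. Blocks of at least 5 genes numbered 13 lower in *ash1*(Y888F) only, 7 in Δ*npf* only, 2 in both and 19 in neither, and windows of 100 kb gave 1 lower in both. Within 100 kb of an end 80.3% of genes were lower in Δ*npf* and 15.2% in *ash1*(Y888F). At 1.5-fold, with 200 kb, the shares were 70.8% at ends and 35.8% inside in Δ*npf*, and 38.7% and 33.4% in *ash1*(Y888F). No comparison of ASH1-marked with unmarked genes could be made, because all 592 are marked.

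The number of RNA falls moved most. Falls over all genes were 139 and over the 592 genes 0 with the parent library as WT, 124 over all genes at an adjusted p under 0.05, and 87 to 918 with a library left out (1 to 7 of the 592). Without WT replicate 2 there were 87, without *ash1*(Y888F) replicate 1 918. The replicate number as a block gave 979 rises and 209 falls in all, and 136 and 4 of the 592, but the numbers come only from library names and the deviations of equal numbers had a correlation of -0.19, so they were not taken as pairs. The count of rises per class stayed within 1.5 times of that reported in all of these settings: 66 to 82 for genes lower in *ash1*(Y888F) only and 13 to 23 for those lower in Δ*npf* only.

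Reversals concern changes that were not called. With the parent library as WT the log2 fold change was -0.21 for *NCU02247* (*dim-2*), -0.31 for *NCU05460*, -0.26 for *NCU06679*, 0.97 for *NCU08399* and 1.22 for *NCU09638*. *NCU06679* was at -0.016 with DESeq2, -0.0039 with RLE size factors and -0.020 without the filter. With a library left out, the values ran from -0.30 to 0.21 for *NCU00269* (0.095 without WT replicate 2), from -0.11 to 0.26 for *NCU01932*, from -0.10 to 0.16 for *NCU02247*, from -0.42 to 0.015 for *NCU04017*, and from -0.11 to 0.11 for *NCU06679* (-0.073 without *ash1*(Y888F) replicate 2). The causes were not tested.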
